A study of Sus scrofa with 80 samples.

Results

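Gene expression in the hypothalamus of Göttingen minipigs was set against that in the cerebral cortex at matched ages. The comparison holds 16 of the 80 arrays of the series, namely the 8 samples labelled Hypothalamus and the 8 samples labelled Cortex at 1 week, 4 weeks, 2 months and 4 months of age, with 1 female and 1 male per tissue and age. The members follow from the tissue and age labels. All of these animals came from the same commercial breeder, were killed with pentobarbital early in the day phase of a day and night rhythm, and carry no other treatment or genotype in the labels. Tissue was frozen, crushed whole and hybridized as total RNA to a one-color custom array, so each value is an average over all cells of the piece. The labels do not give the dissection of either tissue, the area of cortex taken, or which samples came from the same animal. The p-values therefore measure the spread between these samples, with the ages and sexes of a tissue pooled as its 8 replicates. A 2-year-old male, with 1 array per tissue, was raised elsewhere and on other food for most of its life and is given as values without a test.

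The hypothalamus lies at the base of the forebrain and holds small groups of neurons that release peptide hormones and neuropeptides, among them vasopressin, oxytocin, and the peptides that drive or restrain feeding. It controls the pituitary, body temperature, water balance, the daily rhythm and reproduction. Its neurons are specified by homeobox and other transcription factors that differ from those of the cerebral cortex, a layered sheet in which glutamatergic projection neurons are the main cell class and GABAergic interneurons the minor class. The neighbors of the hypothalamus are the thalamus above it, the pituitary below it and the midbrain behind it.

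Values are intensities on a log2 scale after background correction and quantile normalization over all 80 arrays, averaged over the probes of a gene. The 16 arrays had median raw intensities from 43 to 62 on the linear scanner scale, against 19 to 24 for their negative control spots. Between 53.1% and 58.2% of the gene spots were well above background, and between 50 and 87 spots were saturated. A gene that was not well above background on any array of a tissue has a bound there and no level, and where the other tissue was measured its change is given as "at least N-fold". A log2 difference in brackets beside such a bound is the fitted one of the measured intensities. Correlations across genes, which are not independent replicates, were between 0.985 and 0.988 for each hypothalamus sample with the others of its tissue and between 0.972 and 0.975 with the cortex samples.

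The tissue label was set against genes that define the hypothalamus. Most of them were not higher in the samples that carry it, but several could not have shown a difference. AVP, which encodes vasopressin, had a lowest value of 1.76, a median of 2.19 and a highest value of 3.27 in hypothalamus, and 1.43, 2.19 and 2.47 in cortex, and it was not well above background on any of the 80 arrays. OXT, which encodes oxytocin, was between 11.00 and 11.85 in hypothalamus and between 11.12 and 12.11 in cortex, and over all 80 arrays between 10.24 and 12.21. OXT was thus bright in every organ of the series, and no difference between hypothalamus and cortex can be read from it. POMC, the precursor of the melanocortins that reduce feeding, was between 9.44 and 10.58 in hypothalamus and between 9.23 and 9.92 in cortex, with an adjusted p of 0.105. AGRP, PMCH, GHRH, GNRH1 and GAL were not well above background on any of the 16 arrays. HCRT, KISS1 and TAC3 were well above it on all 80 arrays, those of non-brain organs included, with adjusted p-values of 0.488 or more. Whether the probes of AVP and of these genes detect their transcripts was not tested, so their lack of a difference says little about the tissue. The transcription factors SIM1 and OTP, which specify the vasopressin and oxytocin neurons, differed by −0.115 and 0.155 (adjusted p = 0.426 and 0.4). At the same ages SIM1 was between 5.56 and 6.10 in kidney, against 2.25 to 2.78 in cortex, and OTP between 3.84 and 6.38 in ovary. NKX2-1, which marks the developing ventral hypothalamus, had an adjusted p of 0.164. NPY and TRH are not among the named features of the array. The samples are therefore described by their label and by the genes that did differ, and how closely the dissected pieces match the hypothalamus was not tested.

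A group of 3 hypothalamus samples stood apart from the other 5: the 4-week male, the 2-month female and the 4-month male. The genes that show it were picked after their values were seen. TFAP2B, a transcription factor gene, was at 7.96, 7.20 and 7.22 in these 3 samples and between 2.05 and 3.77 in the other 5. EBF3, another transcription factor gene, was at 8.74, 8.01 and 8.33 against 3.46 to 6.08. BARHL1 and POU4F2, a pair of homeobox genes, and CABP7, which encodes a calcium-binding protein, split the samples in the same way. CABP7 did not pass the test over all samples at 0.18 and was lower at −1.30 without the 3 (adjusted p = 0.00231). The same 3 samples had the lowest values of NHLH2, a basic helix-loop-helix gene of hypothalamic neurons, at 5.44, 6.54 and 5.94 against 7.27 to 8.09. In cerebellum at the same ages, TFAP2B was between 6.87 and 7.43, EBF3 between 7.14 and 9.26 and BARHL1 between 9.45 and 10.66. GABRA6, a receptor subunit gene of cerebellar granule cells, was between 8.82 and 10.12 in cerebellum and at 2.94, 2.90 and 3.42 in the 3 samples, with 2.86 to 3.44 over all 8 hypothalamus samples. Calls among the named genes that change without these samples are given with both results.

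**Figure D1:**
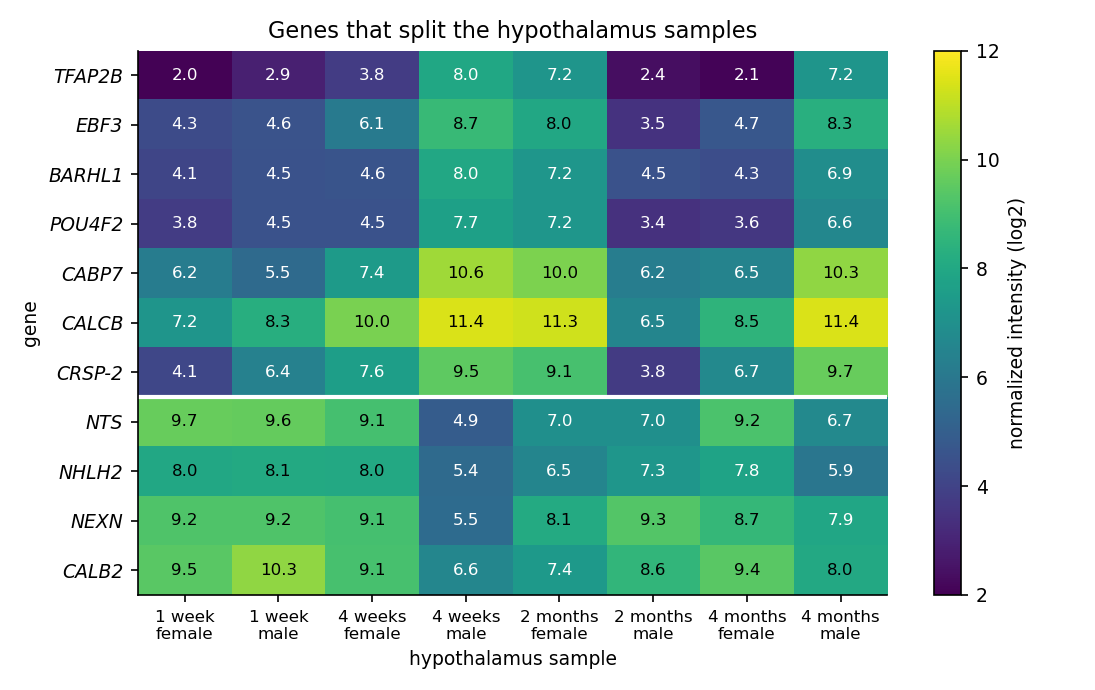
Normalized intensity on a log2 scale (color and printed value) of 11 genes (y axis) in the 8 hypothalamus samples from 1 week to 4 months (x axis). In the 4-week male, the 2-month female and the 4-month male, the 7 genes above the white line have their highest values (TFAP2B at 7.96, 7.20 and 7.22) and NHLH2, below it, has its lowest; levels can be compared along a row and not between rows.

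Over the 23736 genes and unnamed transcripts tested with limma, 3430 (14.5%) were higher and 3024 (12.7%) lower in hypothalamus than in cortex at a Benjamini-Hochberg adjusted p of 0.05. A difference of at least 2-fold was also reached by 510 (2.15%) of the higher and 590 (2.49%) of the lower genes. The 8 hypothalamus samples lay above all 8 cortex samples for 1040 genes (4.38%) and below all of them for 1113 (4.69%). The median difference over all genes was 0. At 2-fold 1100 genes passed in all, against 1178 without the 3 samples that stand apart and 476 with an offset of 50 added to the intensities before the log. In bulk tissue of this kind, fewer cells of a type and less RNA per cell cannot be told apart.

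The 4 largest differences in favor of hypothalamus were those of transcription factors. OTX2, a homeobox gene that patterns the forebrain and midbrain and is also expressed in choroid plexus, had a lowest value of 8.94, a median of 9.59 and a highest value of 9.80 in hypothalamus, and 1.87, 2.38 and 2.58 in cortex. The groups lay far apart, and no cortex array was well above background, so OTX2 was at least 77.5-fold higher (log2 difference 7.17 ± 0.15 SE, adjusted p = 2.42e-16). Of the 10 ependyma and choroid plexus markers on the array 3 (30%) were higher (OTX2, CLIC6 and DNAH9) and 1 (10%), KL, was lower, beside 14.5% and 12.7% of all genes. CLIC6 did not pass the test without the 3 samples that stand apart (adjusted p = 0.115). The DNAH9 call, at 0.315, was lost in several settings, among them the processed signal, the offset of 50 and the authors' value table. The mean log2 value of the 10 markers was between 4.73 and 5.32 in hypothalamus and between 4.12 and 4.31 in cortex, with OTX2 counted. The part of these markers in the OTX2 result was not tested. GATA3, a zinc finger gene that specifies GABAergic neurons of the diencephalon and midbrain, was between 8.32 and 10.14 with a median of 9.00, against 3.34 to 3.82 with a median of 3.44 in cortex. The difference of GATA3 was 5.65 ± 0.23 (adjusted p = 2.05e-12), a 50.1-fold change. SOX14, a gene of GABAergic neurons in the diencephalon, was between 6.89 and 8.24 with a median of 7.28, against 2.64 to 3.05 in cortex, and so at least 20.3-fold higher (4.66 ± 0.18, adjusted p = 1.36e-12). Without the 3 samples that stand apart the difference was 7.15 for OTX2, 5.21 for GATA3 and 4.46 for SOX14.

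The Iroquois genes are homeobox genes that mark the diencephalon and hindbrain, and 3 of them were among the 10 largest differences. IRX2 was between 6.43 and 7.54 with a median of 7.15 in hypothalamus and between 1.76 and 2.46 in cortex, at least 14.9-fold higher (adjusted p = 1.12e-13). IRX3 had a median of 7.03 and a lowest value of 5.70, in the 4-month female, against a highest cortex value of 2.72, at least 13.6-fold higher. IRX5 was between 5.47 and 6.91 against 2.23 to 3.12, at least 7.91-fold higher. All 8 samples were above all cortex samples for each of the Iroquois genes. In cerebellum their ranges were 5.73 to 7.11 for IRX2, 4.72 to 6.13 for IRX3 and 5.19 to 6.15 for IRX5, and OTX2 ranged there from 3.68 to 8.90. SOX14 and NTS, which encodes the neuropeptide neurotensin, were well above background on all 9 hypothalamus arrays of the series, the 2-year male included, and on no array of another tissue. Genes with that pattern numbered 2 for hypothalamus, 3 for cortex, 7 for cerebellum and 38 for liver.

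**Figure D2:**
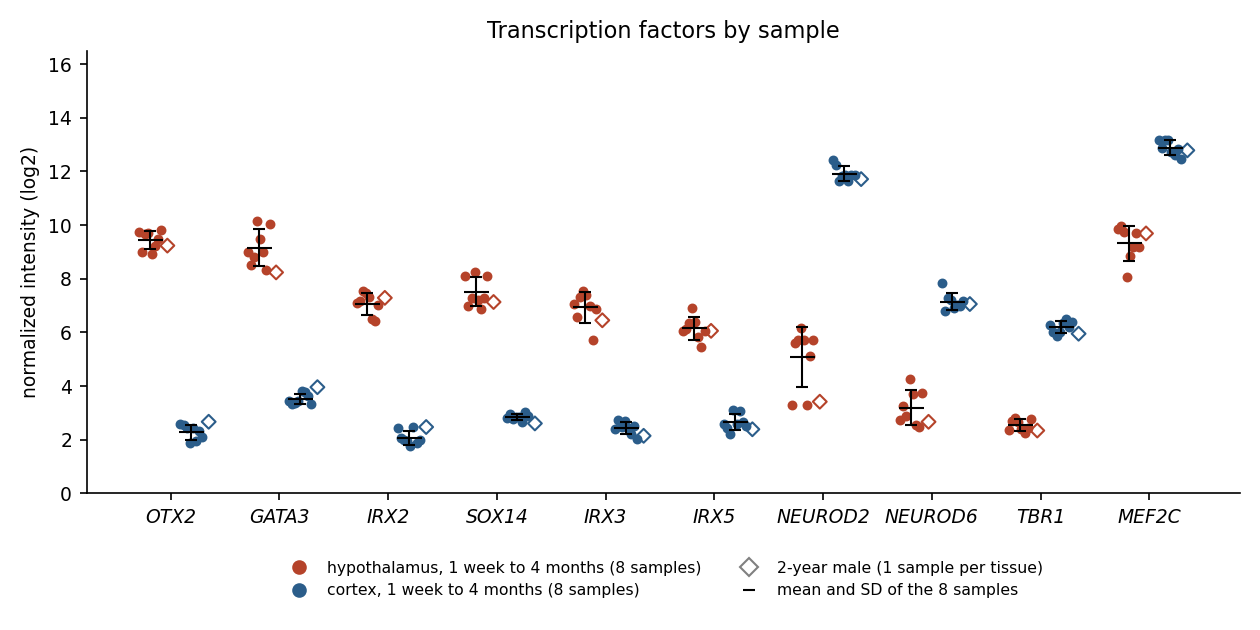
Normalized intensity on a log2 scale (y axis) of 10 transcription factor genes (x axis) in the 8 hypothalamus (red) and 8 cortex samples (blue) from 1 week to 4 months, with the mean and SD of the 8 samples as black bars and the 2-year male as open diamonds. OTX2, GATA3, IRX2, SOX14, IRX3 and IRX5 are higher in every hypothalamus sample than in any cortex sample, and NEUROD2, NEUROD6, TBR1 and MEF2C are lower in every one.

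Of 45 listed transcription factors of hypothalamic neurons 40 were on the array, 21 of them well above background on at least 8 of the 16 arrays. Of the 40, 11 were higher and 5 lower, or 27.5% and 12.5% beside 14.5% and 12.7% of all genes. The median difference of the 40 was 0.03. ZFHX3, which acts in the circadian pacemaker of the hypothalamus, was between 8.91 and 10.40 with a median of 9.88, against 6.62 to 7.21 in cortex (2.93 ± 0.16, adjusted p = 2.11e-10). NHLH2 was between 5.44 and 8.09 against 3.96 to 4.57, with a difference of 2.80 ± 0.34 that became 3.50 without the 3 samples that stand apart. BARHL1 passed the test with a difference of 1.38, and missed it without these 3 samples at 0.27 (adjusted p = 0.114).

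Genes that specify cortical neurons were lower in hypothalamus in most cases. Of 34 such transcription factor and layer genes on the array, 24 (70.6%) were lower and 2 (5.88%) were higher, beside 12.7% and 14.5% of all genes. At least 2-fold lower were 19 of the 34, beside 2.49% of all genes. The median difference was −1.09. The 8 samples of the tissues did not overlap for 19 of the lower genes, beside 4.69% of all genes. NEUROD2, a factor of cortical projection neurons, was between 3.30 and 6.15 with a median of 5.66, against 11.63 to 12.43 in cortex (−6.84 ± 0.37, adjusted p = 1.64e-10). TBR1, a factor of deep-layer neurons, was between 2.25 and 2.81 against 5.87 to 6.52. It was not well above background on any hypothalamus array and was at least 10.1-fold lower. NEUROD6 and MEF2C, both factors of projection neurons, were between 2.47 and 4.27 against 6.79 to 7.85 and between 8.05 and 9.96 against 12.47 to 13.19, and differed by −3.95 ± 0.23 and −3.56 ± 0.22. LHX2, a homeobox gene that was not in the naming rule, was at 7.92 ± 0.52 (SD, n = 8) against 10.55 ± 0.27 in cortex.

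All 11 markers of cortical excitatory neurons were lower in hypothalamus, 9 of them by at least 2-fold, beside 12.7% and 2.49% of all genes. The median difference of these markers was −3.33. Their mean log2 value was between 4.80 and 5.22 in the hypothalamus samples and between 8.26 and 8.46 in the cortex samples. NRGN, which encodes the calmodulin-binding protein neurogranin of dendritic spines, was between 4.23 and 6.17 against 10.23 to 10.89, a 43.4-fold difference. The zinc transporter gene SLC30A3, which loads zinc into synaptic vesicles, was between 3.80 and 4.72 against 7.13 to 7.80. Postsynaptic genes were also among the 10 largest differences toward cortex. CHRM1, the muscarinic acetylcholine receptor of cortical and hippocampal neurons, was between 5.89 and 7.72 with a median of 7.10 in hypothalamus and between 12.41 and 13.05 with a median of 12.88 in cortex (−5.80 ± 0.20, adjusted p = 2.72e-13). DDN, which encodes the dendritic protein dendrin, was between 6.27 and 8.30 against 12.17 to 12.83. The potassium channel subunit gene KCNV1 was between 3.39 and 4.08 against 8.17 to 8.92. F5, the gene of coagulation factor V, C2orf55, and KRT25, a keratin gene, were also among the 10, at −5.15, −5.14 and −4.70, and KRT25 was not well above background in hypothalamus and at least 20.3-fold lower.

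Of 40 listed neuropeptide and peptide hormone genes 34 were on the array, 21 of them well above background on at least 8 of the 16 arrays. Higher in hypothalamus were 4 (11.8%), lower were 6 (17.6%), and 24 did not pass the test, with a median difference of 0.02, so the shares lay near those of all genes. NTS had a lowest value of 4.90, a median of 8.01 and a highest value of 9.66 in hypothalamus, and lay between 2.89 and 3.83 in cortex, where no array was well above background. It was at least 22.2-fold higher (4.52 ± 0.55, adjusted p = 5.53e-06), and without the 3 samples that stand apart its difference was 5.53. PDYN, the precursor of the dynorphin opioid peptides, was between 5.54 and 9.77 with a median of 7.84, against 3.89 to 5.55 with a median of 4.55 in cortex (3.23 ± 0.43, adjusted p = 1.42e-05). The PDYN ranges overlapped by the 4-week male, whose 5.54 lay within the cortex range. The third, NPPC, the gene of C-type natriuretic peptide, differed by 0.58, and PROK2, which encodes a circadian output peptide, passed the test although no array of either tissue was well above background for it. No size is given for PROK2, and its call was lost with the processed signal and with the authors' value table. TAC1, the precursor of substance P, did not pass the test (adjusted p = 0.226): it was at 6.13 in the 1-week female and 6.78 in the 2-month male, and between 9.16 and 11.25 in the other 6, against 7.85 to 9.32 in cortex.

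The peptide genes that were lower included VIP and SST, which mark cortical interneurons. Of 7 cortical interneuron markers on the array 2 (28.6%) were lower and 1 (14.3%), CALB2, was higher, beside 12.7% and 14.5% of all genes. The other 4 did not pass the test, among them PVALB at −0.336 (adjusted p = 0.662). VIP, which encodes vasoactive intestinal peptide, was between 2.93 and 3.35 with a median of 3.07 in hypothalamus and between 7.12 and 7.79 with a median of 7.53 in cortex (−4.42 ± 0.09, adjusted p = 2.42e-16). The hypothalamus values of VIP lay close together, and 3 of the 8 samples were well above background. SST, which encodes somatostatin, was between 6.39 and 10.14 against 11.20 to 11.77, a 9.17-fold difference without overlap. CRH, the hormone that starts the stress response of the pituitary and adrenal, was between 3.75 and 6.10 with a median of 5.25 in hypothalamus, against 7.70 to 8.98 with a median of 7.79 in cortex, where interneurons also make it (−2.88 ± 0.28, adjusted p = 3.13e-07). CARTPT, the precursor of an appetite-reducing peptide, was lowest at 3.07 in the 1-week female and highest at 8.05 in the 4-week male, and between 9.06 and 11.04 in cortex. Its difference was −4.66 ± 0.65 (adjusted p = 2.21e-05) and became −5.78 without the 3 samples that stand apart. NMB, which encodes neuromedin B, differed by −2.41, and PTHLH, a parathyroid hormone-like gene, by −0.38. In cerebellum VIP was between 3.13 and 3.93 and CARTPT between 2.92 and 3.95.

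**Figure D3:**
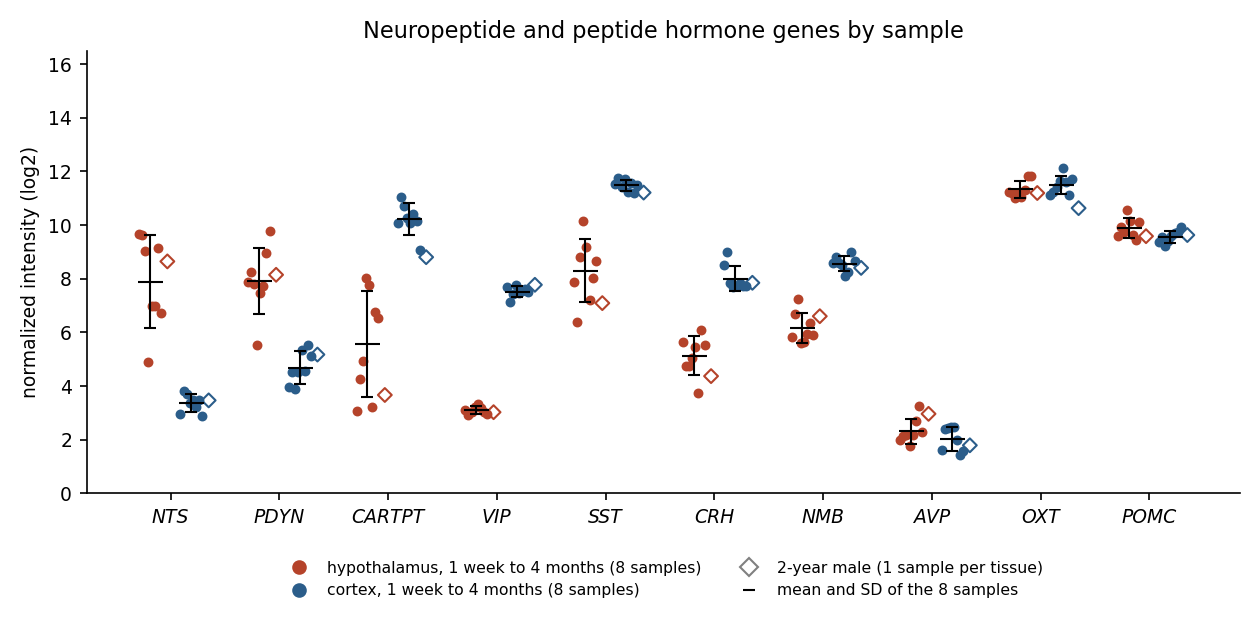
Normalized intensity on a log2 scale (y axis) of 10 neuropeptide and peptide hormone genes (x axis) in the 8 hypothalamus (red) and 8 cortex samples (blue), with mean and SD as black bars and the 2-year male as open diamonds. NTS and PDYN are higher in hypothalamus and spread from 4.90 to 9.66 and from 5.54 to 9.77, CARTPT to NMB are lower without overlap, and AVP, OXT and POMC overlap between the tissues.

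The receptors through which such peptides and steroids act went both ways. Of 45 receptor genes on the array 6 (13.3%) were higher and 8 (17.8%) lower, near the shares of all genes. OPRM1, the mu opioid receptor, was between 7.21 and 8.97 with a median of 8.16 in hypothalamus, above every cortex sample at 6.01 to 6.60 (1.89 ± 0.20, adjusted p = 1.15e-06). Somatostatin receptors were lower: SSTR1 was between 4.24 and 7.42 against 8.46 to 9.60, and SSTR2 between 6.46 and 8.77 against 9.54 to 10.23. SSTR5 differed by −1.999, but a second feature of the array with that gene's accession gave 0.36, so its direction is uncertain. CRHR1, the receptor of corticotropin-releasing hormone, differed by −1.17, and HCRTR1, an orexin receptor, was not well above background in hypothalamus and at least 2.33-fold lower. LEPR, the leptin receptor, was between 3.30 and 3.86 against 3.48 to 4.36 (adjusted p = 0.602), and the ghrelin receptor GHSR was not well above background on any of the 16 arrays.

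Genes of secretory granules and prohormone processing were not raised together. Of 16 on the array 5 (31.2%) were lower and 1 (6.25%) was higher, with a median difference of −0.22. PCSK1, the convertase that cuts prohormones, was between 5.81 and 7.06 in hypothalamus and between 8.45 and 9.05 in cortex (−2.45 ± 0.15, adjusted p = 9.64e-10), and all 4 of its probes gave that sign. CADPS2, a gene of granule release, was not well above background in hypothalamus and at least 2.11-fold lower. The granule proteins CHGA, CHGB and SCG3 differed by −0.84, −0.85 and −0.82, and CHGB did not pass the test without the 3 samples that stand apart (adjusted p = 0.196). SCG2, another granule protein gene, did not pass the test over all samples at −0.63 (adjusted p = 0.106). It was lower at −0.95 without the 3 (adjusted p = 0.0292), and the list held 5 lower genes either way. GNAS, the G protein subunit that couples hormone receptors to cyclic AMP, was the higher gene at 0.57.

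The vesicular glutamate transporters, which define the subcortical and cortical kinds of glutamatergic neuron, changed in opposite directions. SLC17A6, the transporter of diencephalic neurons, was between 10.29 and 11.89 with a median of 11.22 in hypothalamus and between 7.27 and 8.97 with a median of 8.12 in cortex (3.18 ± 0.26, adjusted p = 5.04e-08). SLC17A7, the transporter of cortical neurons, was between 4.59 and 5.90 against 6.53 to 7.54 (−2.03 ± 0.19, adjusted p = 2.4e-07). Of 24 transmitter synthesis and transport genes on the array, 6 (25%) were higher and 3 (12.5%) lower, and 4 were higher without the 3 samples that stand apart. MAOB, which degrades monoamines in glia, differed by 1.16, SLC6A11, a GABA transporter, by 0.69 and ACHE, acetylcholinesterase, by 0.56. SLC32A1, which loads GABA into vesicles, differed by 0.61 (adjusted p = 0.0287) and by 0.27 without the 3 samples that stand apart (adjusted p = 0.185). GAD2, which makes GABA, was between 8.30 and 10.21 against 8.23 to 8.99 (adjusted p = 0.0562). Among 36 receptor subunits for GABA, glycine and glutamate, 8 (22.2%) were higher and 6 (16.7%) lower. GLRA2, a glycine receptor subunit, was between 8.23 and 9.41 against 6.45 to 7.69, and GRM4, a metabotropic glutamate receptor, differed by 1.56. GRIA2, an AMPA receptor subunit, differed by −1.63, GRIN1, the obligatory NMDA receptor subunit, by −0.95 over 10 probes of 1 sign, and GRM3 by −0.82.

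Markers of neighboring brain regions moved with the tissue label, and their part in the other results was not tested. Of 11 markers of thalamus and epithalamus on the array 8 (72.7%) were higher in hypothalamus and none lower, with a median difference of 1.24. Their mean log2 value was between 6.35 and 7.36 in the hypothalamus samples and between 5.26 and 5.54 in the cortex samples. CALB2, which encodes the calcium-binding protein calretinin, had a median of 8.83 against 5.48, and NTNG1, a gene of thalamic projection neurons, a median of 7.69 against 4.95. Without the 3 samples that stand apart the differences of CALB2 and NTNG1 went from 3.05 and 2.25 to 3.82 and 2.95. That of TAC1, also on this list, went from 1.15 to 0.35. RORA and FOXP2, a pair of transcription factor genes, were between 8.29 and 9.71 against 7.10 to 8.10 and between 4.84 and 6.15 against 3.58 to 4.41. TCF7L2, which defines thalamic and habenular neurons, was well above background on 5 hypothalamus arrays and on none of cortex and was at least 1.94-fold higher, LHX9 had an adjusted p of 0.295, and GBX2 passed the test although none of the 16 arrays was well above background for it. SLC17A6, CALB2 and FOXP2 are also expressed in the hypothalamus itself. Of 10 striatal markers 4 (40%) were lower and 1 (10%) was higher, beside 12.7% and 14.5% of all genes. The higher one was the dopamine receptor DRD2, between 6.21 and 8.30 against 3.51 to 4.63 (3.23 ± 0.29, adjusted p = 1.38e-07), whereas DRD1 was lower at −0.80.

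Pituitary markers were not higher in hypothalamus. Of 13 pituitary markers none passed the test as higher, GH1 was between 2.88 and 3.70 in hypothalamus and between 2.84 and 3.41 in cortex, and PRL was not well above background on any of the 16 arrays. CGA, the shared subunit of the glycoprotein hormones, was not well above background in hypothalamus and between 4.08 and 6.34 in cortex, at least 4.73-fold lower. The mean log2 value of the pituitary markers was between 2.71 and 2.95 in hypothalamus and between 2.97 and 3.31 in cortex. None of 10 blood markers and none of 10 endothelium and mural cell markers passed the test, and of 7 meninges and fibroblast markers ISLR was lower at −1.56. HBB, the beta chain of hemoglobin, was between 10.98 and 15.28 in hypothalamus and between 10.52 and 15.68 in cortex.

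Myelin, microglial and some astrocyte genes were higher in hypothalamus, and their part in the other results was not tested. Of 15 oligodendrocyte and myelin markers on the array 9 (60%) were higher, 8 of them by at least 2-fold, and none was lower, with a median difference of 1.04. GJB1, a gap junction gene of myelinating glia, was between 8.00 and 9.60 with a median of 9.09, against 6.28 to 7.34 with a median of 6.58 in cortex (2.18 ± 0.23, adjusted p = 8.63e-07). MOG, a protein of the outer myelin surface, was between 8.45 and 9.61 against 6.91 to 7.62, without overlap. TF, the iron carrier transferrin, differed by 2.78 ± 0.57, but its cortex values ran from 7.58 in the 1-week female to 11.40 in the 4-month female, and another feature with its accession gave 0.50. ASPA and SOX10 were higher by 1.54 and 1.29. MBP, the myelin basic protein, was saturated in all 8 hypothalamus and in 6 cortex samples and has no usable difference. The mean log2 value of the myelin markers was between 7.18 and 7.72 in hypothalamus and between 6.35 and 6.87 in cortex. Astrocytes were represented by GFAP, an intermediate filament gene, between 12.08 and 13.94 against 11.25 to 13.08, and by AQP4, the water channel of astrocyte endfeet, between 11.72 and 12.74 against 10.40 to 11.69, with 4 of 10 markers higher and SLC1A3 lower at −0.31, a call that was lost without the 3 samples that stand apart (adjusted p = 0.0522). Microglial genes were higher in 6 of 10 cases (60%), none by 2-fold, with CX3CR1 at 0.94, C1QB at 0.71 and CSF1R at 0.54. AIF1 differed by 0.92 over 6 probes and by 0.03 without the probes marked as cross-hybridizing. TMEM119 passed the test at 0.91 (adjusted p = 0.0333) and did not pass it without the 3 samples that stand apart (adjusted p = 0.091).

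**Figure D4:**
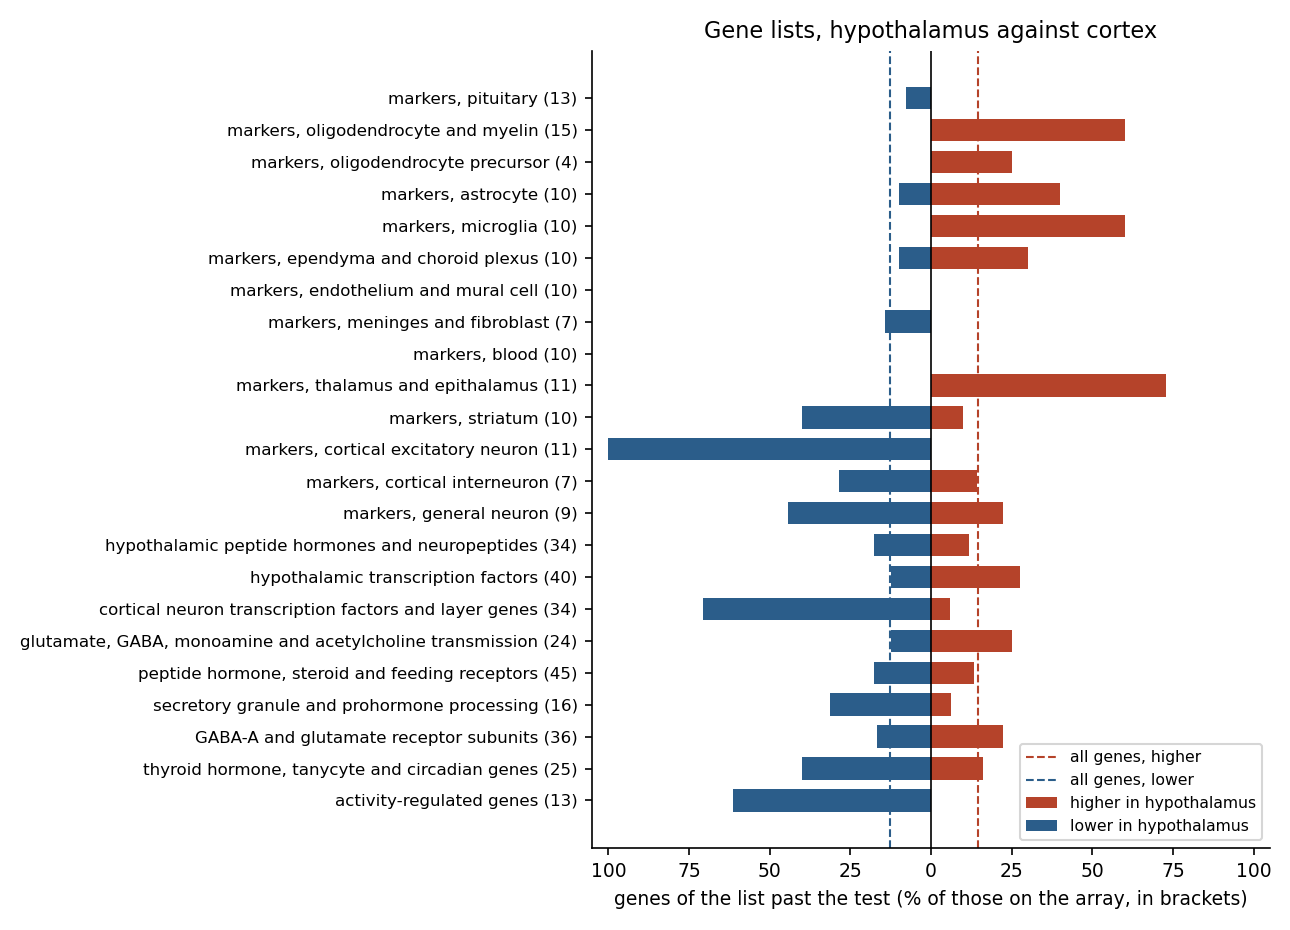
Percent of the genes of each list that passed the test (x axis, genes on the array in brackets), higher in hypothalamus to the right in red and lower to the left in blue, with dashed lines at 14.5% and 12.7% for all genes. Cortical excitatory neuron markers reach 100% and cortical layer genes 70.6% on the left, the thalamus and epithalamus markers reach 72.7% and the myelin and microglia markers 60% on the right, and the peptide list lies near the lines with 11.8% and 17.6%.

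Several genes of thyroid hormone handling and most activity-regulated genes were lower in hypothalamus. Of 25 thyroid hormone, tanycyte and circadian genes 10 (40%) were lower, 4 (16%) higher and 11 not called. CRYM, a thyroid hormone-binding protein, was between 5.00 and 5.70 against 7.56 to 9.01 (−2.91 ± 0.19, adjusted p = 1.79e-09). SLCO1C1, a thyroid hormone transporter, was between 2.93 and 5.08 against 6.13 to 7.28, and DIO2, the deiodinase that activates the hormone, between 8.59 and 10.04 against 10.03 to 11.58. VIM, a marker of tanycytes and other glia, differed by −1.06. Of 13 activity-regulated genes 8 (61.5%) were lower and none was higher. EGR4, a transcription factor gene induced by neuronal activity, was between 3.52 and 5.90 with a median of 5.27 against 8.67 to 10.62 with a median of 9.61, and EGR3 was not well above background in hypothalamus and at least 15.5-fold lower. EGR1, HOMER1 and NPAS4 differed by −2.75, −2.51 and −2.13, JUNB by −0.52, and FOS missed the threshold at −0.84 (adjusted p = 0.0872).

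Other genes among the 10 largest differences toward hypothalamus were not regulators of transcription. NEXN, which encodes the actin-binding protein nexilin, was lowest at 5.51 in the 4-week male, with a median of 8.86 and a highest value of 9.34, and between 3.66 and 4.50 in cortex (4.26 ± 0.41, adjusted p = 3.59e-07). SYNDIG1L, a relative of a gene of synapse differentiation, was between 9.67 and 10.60 against 5.82 to 7.15. MYH1, a myosin heavy chain gene of skeletal muscle, was between 5.06 and 7.64 against 2.48 to 3.98 and at least 8.42-fold higher, and myosin heavy chain genes are alike in sequence. CALCB and CRSP-2, both of the calcitonin family, passed the test at 2.10 and 2.39 but followed the split of the samples. CALCB was at 11.43, 11.29 and 11.45 in the 3 samples that stand apart and between 6.53 and 10.003 in the other 5, and without the 3 its difference was 0.87 (adjusted p = 0.174) and that of CRSP-2 0.99 (adjusted p = 0.236).

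Age and sex were examined as changes in the difference between the tissues. With 4 samples per tissue at 1 and 4 weeks and 4 at 2 and 4 months, 1 gene (0.00421%) passed the limma test for a change of the difference with age. At an unadjusted p under 0.05 there were 2123 genes. The gene that passed was RASGRP3, which encodes an exchange factor that activates Ras and Rap. In hypothalamus it was at 5.09 ± 0.19 (SD, n = 4) in the younger and 5.50 ± 0.11 in the older samples, and in cortex at 4.87 ± 0.04 and 4.21 ± 0.09. The interaction was 1.06 ± 0.14 (limma adjusted p = 0.0332), and no gene passed for age with the processed signal, with median scaling, or with covariates or a slide block added. No gene (0%) passed for sex with limma, and 345 did at an unadjusted p under 0.05. With 4 samples per group, genes that missed the threshold cannot be taken as free of an effect of age or sex.

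The 2-year-old male gave 1 hypothalamus and 1 cortex array, on slides that hold no younger sample. At least 2-fold above cortex were 544 genes (2.29%) and at least 2-fold below it 640 (2.7%). Of the 510 genes called higher by at least 2-fold in the younger animals 482 were higher and 259 at least 2-fold higher in this male, and of the 590 lower genes 579 were lower and 381 at least 2-fold lower, while 51.1% of all genes were higher. OTX2 differed by 6.57, SOX14 by 4.53, NTS by 5.18, GATA3 by 4.28 and VIP by −4.75. The genes of the split were at the level of the other samples, with TFAP2B at 2.49 and EBF3 at 4.29. The myelin markers did not differ in the same way, since 8 of 15 were higher, 7 were lower and none differed by 2-fold, with GJB1 at 0.19, MOG at −0.05 and TF at 0.19. In this male TF was at 12.99 in hypothalamus and 12.80 in cortex. AVP was at 2.97 and OXT at 11.20 in its hypothalamus.

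**Figure D5:**
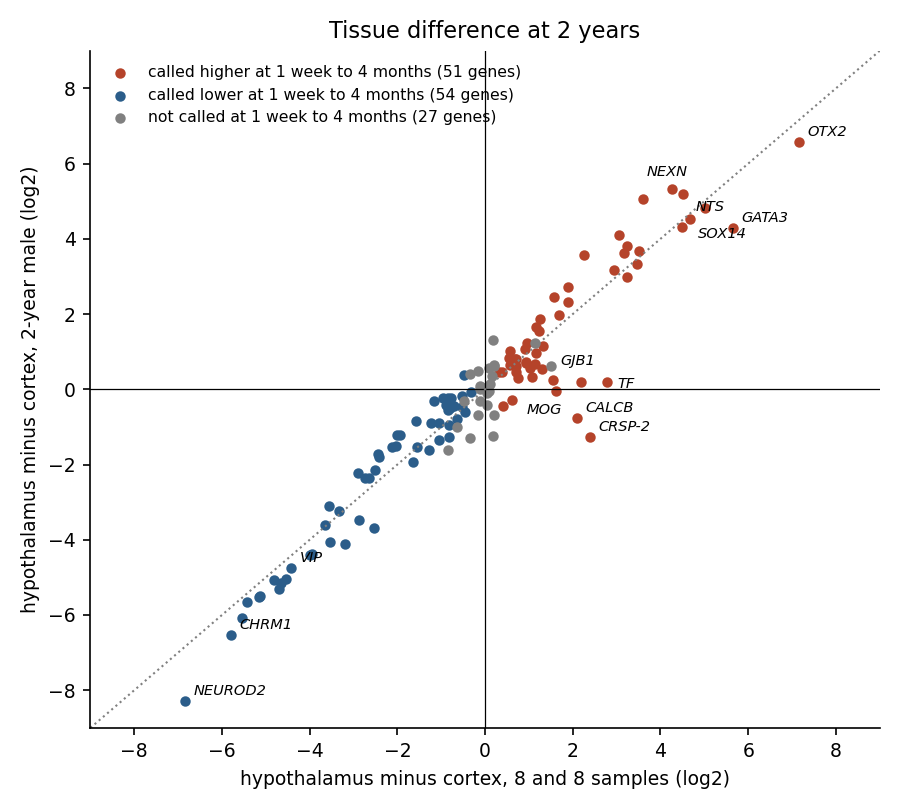
Difference between hypothalamus and cortex on a log2 scale in the 2-year male (y axis, 1 array per tissue) against the difference between 8 and 8 younger samples (x axis) for 132 genes, colored by the result of the test in the younger samples, with the dotted line at equality. OTX2 lies at 7.17 and 6.57 and VIP at −4.42 and −4.75, whereas TF, GJB1 and MOG, higher in the younger hypothalamus, lie near 0, and CALCB and CRSP-2 lie below it at −0.76 and −1.26.

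The younger samples lay on 9 slides, of which 7 held 1 hypothalamus and 1 cortex sample. On each of the 7 these samples differed in age, and on some of them also in sex, so the differences within slides are not of tissue alone. Within slides, OTX2 differed by 6.61 to 7.87, VIP by −4.69 to −4.10, NTS by 2.01 to 6.40 and PDYN by 0.42 to 3.84, each with the same sign in all 7.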

How the data were processed

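Total RNA of 80 samples had been hybridized to one-color custom arrays of 62976 spots, 61289 of them gene spots with 49280 probes. For each array the output of the scanner software, Agilent Feature Extraction 11.5.1.1 per the file headers, was deposited, with the raw median intensity of every spot and an intensity corrected for background, neither of them normalized between arrays. The authors also deposited a value table with log2 values made from the same arrays, which was used as an alternative. These correlated with the corrected intensity, over bright spots, at 0.9956 or more on every array, and all arrays of it share 1 distribution to within 0.0038, with a median of 4.57, so that it is quantile normalized and not centred by gene. The study's methods name RMA with background correction. Here the raw median intensity was corrected with normexp (saddle-point, offset 0) and quantile normalized over all arrays in limma 3.58.1 under R 4.3.3. Between 52 and 106 spots flagged by the scanner software were left out per array, and spots, probes and then genes were averaged on the log2 scale. This gave 23736 features, 12914 with a symbol in the files. Of 10822 features with an accession 3022 were found in the RefSeq table of the pig and 2455 had a symbol there. Each gene was taken under its file symbol where there is one, otherwise under an accession.

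Groups came from the labels. Hypothalamus and cortex were compared with lmFit and eBayes with Benjamini-Hochberg adjustment over all features at 0.05 and without covariates. Interactions with age class and sex were fitted on the same 16 samples. A gene was called not well above background in a tissue where the scanner software flagged none of its probes as well above it on any array. Bounds compare the brighter mean with the higher, per array, of the gene's value and the lowest value of a spot well above background. Those lowest values were between 2.01 and 3.33 log2 units. The number of arrays limits the precision.

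Genes named are the peptide genes past the test at 2-fold, up to 6 per other list, the 10 largest differences in each direction without overlap, those with an interaction, and the 10 most variable in hypothalamus, plus the first genes of a list where these did not pass. Some genes that the rule gives are not reported here. The other genes named were chosen after their values were seen. Comparison, members and lists were chosen with earlier results of these data known. The fit was tested on simulated data. Alternatives covered the intensity column, background, scaling, filter, probes, the authors' table, moderation, covariates, the replicate block, the slide, thresholds and samples left out. Plots were drawn with matplotlib 3.10.9.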

Additional observations from a re-analysis of the deposited data

Results flagged for a closer look

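Among 132 named genes in 2 tissues, 20 of 264 groups of 8 samples held a sample far from the other 7 by Dixon's test, or 7.58%. The test is set to flag about 1 in 20 groups drawn from a single population. Each group here mixes ages and sexes, and some genes were named for their spread, so that rate is no fair reference. Of the 20, 9 were in hypothalamus and 11 in cortex. In hypothalamus, the 4-month female had 3 of them: KL at 6.151, TTR at 4.139 and CHGA at 11.725. The 4-month male stood apart with LHX9 at 6.884 and SLC30A3 at 4.717, and the 4-week male with NEXN at 5.512 and with MBP at 15.985, where the other 7 samples lay between 15.997 and 15.999 at saturation. Single flags fell on GH1 at 3.7 in the 2-month female and SSTR2 at 6.46 in the 2-month male.

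In cortex, the 1-week female had 4 of the 11: CALB2 at 6.785, NEUROD6 at 7.846, PVALB at 10.64 and SYN1 at 3.95. The 2-month male stood apart with SLC6A11 at 7.094 and LEPR at 4.36, and the 4-month female with SIM1 at 2.254 and CABP7 at 8.564. Single flags fell on SSTR1 at 8.456 in the 4-month male, VIM at 12.855 in the 4-week male and MYH1 at 3.983 in the 1-week male. RASGRP3 was flagged because its tissue difference depended on age, by 1.061 on the log2 scale.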

How the results depend on the processing

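The count of genes that differed, 6454, stayed within 4417 to 7207 over 31 alternatives. Of 3934 comparisons of named genes across alternatives 3875 kept their side of the threshold, 43 lost the call, 16 gained one and no call reversed. Genes without a call in the main test could change sign, as CABP7 did from 0.18 to −1.30 without the 3 samples that stand apart. Calls were lost in some settings by PROK2, SLC1A3, DNAH9, CRSP-2, TMEM119, CLIC6, SLC32A1, CALCB, AIF1 and CHGB. The count at 2-fold, 1100, was 476 with an offset of 50, 2672 at 1.5-fold and 224 at 4-fold, and 1178 without the 3 hypothalamus samples that stand apart. The 1 gene for age became 0 with the processed signal, median scaling, covariates, the slide block and age as a linear step, 2 with trend and robust moderation and without cross-hybridizing probes, 3 with an offset of 50, the filter on dim genes and local background, and 4 with the authors' table. The 0 genes for sex became 1 with the processed signal and with the authors' table and 2 with an offset of 50. The causes were not tested. Leaving out each of the 16 samples gave 5896 to 6463 genes, 1066 to 1124 at 2-fold, 0 to 4 for age and 0 for sex. With samples of the same age and sex as a replicate block, 6975 genes passed, 1103 at 2-fold, 0 for age and 0 for sex. The deviations of such pairs correlated between 0.033 and 0.281, and 6 of 8 correlated best with their own pair, a hint from the data and not the design. With the 4-week males at 0.033 the pairing was not established. Local background, leaving out cross-hybridizing probes and leaving out the 3 samples were chosen after seeing the data. The planned normexp fit on mean spot intensities was not run, since the columns read here hold no such mean. Genes below background have only bounds.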

Other observations

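Some of the named genes that varied most among the 8 hypothalamus samples varied by sex or age label or with the split described above. TAC1 followed the split only in part. Its difference of 1.15 became 0.35 without the 3 samples that stand apart, and it passed the test in neither case. The transcript with accession AJ429140 was between 7.24 and 7.51 in the 4 females and between 2.35 and 2.72 in the 4 males, and in cortex between 7.75 and 7.99 and between 2.37 and 3.11. EIF1AY, a Y-linked translation initiation factor gene, was between 7.28 and 7.54 in the males and between 3.47 and 4.17 in the females. The sex labels of all 16 samples matched both genes. HLA-DRA, which encodes a chain of the MHC class II molecule, was at 3.39 and 4.70 in hypothalamus and 4.76 and 5.20 in cortex at 1 week, and at 7.97 and 8.65 in hypothalamus and 7.59 and 7.97 in cortex at 4 months. The 2-year male had 8.63 in hypothalamus. CRSP-2 and CABP7 had their highest hypothalamus values in the 3 samples that stand apart, at 9.54, 9.10 and 9.69 and at 10.56, 10.03 and 10.34.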
